A study of Homo sapiens with 4 samples.

Results

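Chromosome 19 held 3904 of the 78048 ATAC-seq peaks on chromosomes 1 to 22 and X in 8 deposited peak lists, and all of them are described here. The members are every peak whose chromosome field reads 19, in a narrow and a broad list from each of 4 libraries of OVSAHO, an established ovarian cancer cell line. In ATAC-seq a transposase cuts and tags DNA that is not wrapped in nucleosomes, so sequenced fragments pile up over open chromatin. Narrow peaks came from nucleosome-free fragments and broad peaks from all fragments. The test cells (OVSAHO-A2-siA4) had raised SMARCA2, a stable change per the labels, and a knockdown of SMARCA4, which encode the alternative ATPases of SWI/SNF nucleosome remodellers. The control cells (OVSAHO-Ctrl-siNC) are given as WT. All cells of both groups received carboplatin at 25 µM for 2 days, and no library is from untreated cells. Each group had 2 libraries, called test 1, test 2, control 1 and control 2. The labels do not say whether the libraries of a group were separate cultures or how many clones were used, and any p-value measures only the spread between these libraries, which may be technical. SMARCA2 and SMARCA4 levels and markers of the cell line were not checked, since only peaks were used.

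Chromosome 19 is known as the human chromosome with the densest genes and as the home of large clusters of KRAB zinc finger genes. These arose by tandem duplication, and many of their proteins bind transposable elements and recruit the TRIM28 repressor. The clusters are also known for repressive histone marks over the zinc finger exons beside active promoters. In RefSeq for GRCh38.p14, used here for gene counts only, chromosome 19 has 1451 of 19970 protein-coding genes (7.27%) and 262 of the 559 whose symbols begin with ZNF, ZFP or ZSCAN and a number (46.9%). SMARCA4 is a gene of its short arm. The peaks are on hg19, whose sequence and gene annotation were not used here, so regions are given by hg19 position, without genes or sequences.

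Libraries differed in depth and control 1 stood apart. Per the file headers, narrow lists rested on 6146272 to 7531794 fragments in test 1, test 2 and control 2 and on 15828837 in control 1, and broad lists on 22432549 to 25452784 and on 31515662. Over all fragments the mean length was 131 bp in control 1 and 178 to 182 bp in the others. Results that rest on control 1 are therefore also given without it.

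Peaks were crowded on chromosome 19 in every library. It carried 4.69 narrow peaks per Mb for test 1, 4.80 for test 2, 5.70 for control 1 and 6.14 for control 2. The other chromosomes together carried 1.05, 1.31, 3.37 and 1.71 in the same order. In broad lists the density was 10.1 per Mb for test 1, 12.5 for test 2, 10.3 for control 1 and 11.8 for control 2, against 2.79, 4.44, 6.01 and 4.25 elsewhere. In test 1, test 2 and control 2 chromosome 19 had the highest density of 23 chromosomes in both peak types. Control 1 placed it at rank 5 in narrow and rank 6 in broad peaks, with chromosome 20 at rank 1.

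**Figure D1:**
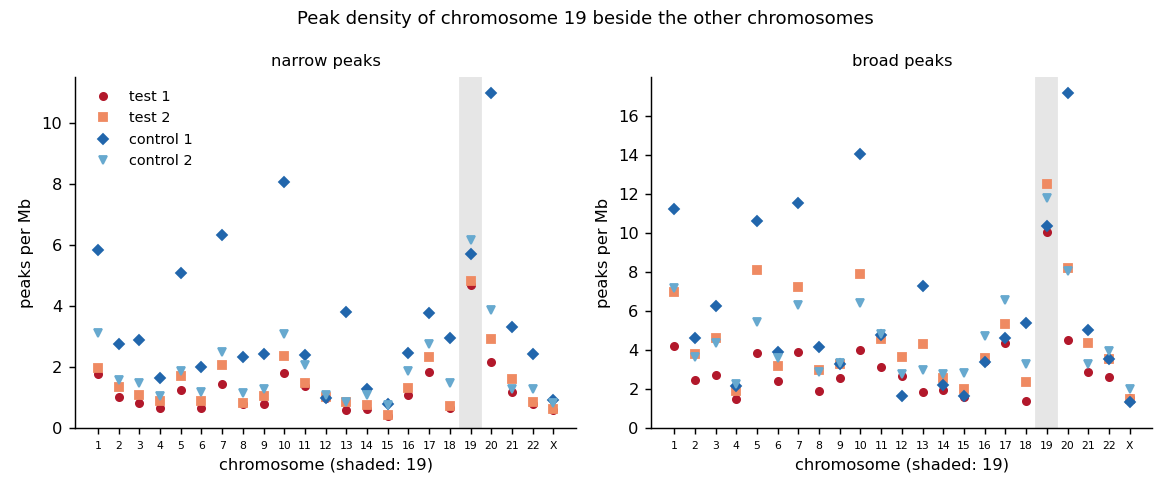
Peaks per Mb (y axis) on each chromosome (x axis) in narrow (left) and broad lists (right), 1 point per library, with no replicate averaging. In test 1, test 2 and control 2 chromosome 19 (shaded) lies above every other chromosome, while control 1 peaks at chromosome 20 with 11.0 narrow and 17.2 broad peaks per Mb.

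Density per gene gave another order. Per 100 protein-coding genes, chromosome 19 had 19.1 narrow peaks for test 1, 19.6 for test 2, 23.2 for control 1 and 25.0 for control 2, at ranks 9, 12, 19 and 12 of 23. Chromosome 20, which is close to it in length, had 25.5, 34.3, 128 and 45.4. Chromosome 17 had 12.8, 16.2, 26.2 and 19.2 and chromosome 22, also small and rich in genes, 9.09, 9.76, 27.5 and 14.4. In narrow peaks chromosome 19 thus lay above chromosomes 17 and 22 in test 1, test 2 and control 2 and below both in control 1. In broad peaks it lay above both in every library, in control 1 at 42.1 against 31.9 (chromosome 17) and 39.9 (chromosome 22). Regions are not replicates, and the differences between chromosomes were not tested.

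The number of chromosome 19 peaks was compared between test and control cells. Narrow peaks numbered 277 and 284 in the test libraries (1, then 2) and 337 and 363 in the control libraries. The groups did not overlap, with control the higher, at a mean of 350 ± 18.4 against 280.5 ± 4.95 (SD, n = 2 per group), or 69.5 more. The two-sided p from exact permutation was 0.333, the smallest that 4 libraries allow, and after adjustment it was 1, as for each of the 18 such comparisons made for chromosome 19. The order did not hold per 1000000 fragments, where the libraries had 45.1, 41.2, 21.3 and 48.2 narrow peaks and control minus test was -8.41. With all lists at equal length the difference was -94, and among peaks with a −log10 q of 5 or more (q being the caller's p-value adjusted for multiple tests) it was -0.5. The broad lists held 595 (test 1), 739 (test 2), 611 (control 1) and 698 (control 2). Those groups overlapped (means of 667 ± 102 and 654.5 ± 61.5, SD, n = 2 per group, exact permutation p = 1). Control minus test was -12.5 broad peaks with all libraries, 31 without control 1, -56 without control 2, -84.5 without test 1 and 59.5 without test 2. In lists of equal length it was -145, and at the stricter q -80.

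As a share of its list, chromosome 19 took more in test libraries. Of all narrow peaks it held 8.14% in test 1 (95% exact interval 7.24 to 9.11), 6.81% in test 2 (6.06 to 7.62), 3.25% in control 1 (2.92 to 3.61) and 6.67% in control 2 (6.02 to 7.37). In broad lists the shares were 6.69%, 5.30%, 3.31% and 5.23%. Neither set of groups overlapped, yet test 2 and control 2 lay within each other's intervals, which cover counting error only. The mean difference was 2.51 percentage points in narrow and 1.73 in broad peaks (each exact permutation p = 0.333, adjusted p = 1). Without control 1 they were 0.805 and 0.768, and without control 2 4.22 and 2.69. At the stricter q the broad difference was 4.19.

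Along the chromosome the peaks gathered in 2 blocks, 1 on each arm. The bins from 10 to 15, 15 to 20 and 35 to 40 Mb had the most peaks of the 12 bins in test 1, test 2 and control 2, in both peak types. Control 1 also had its highest count from 35 to 40 Mb, but its next highest came from 30 to 35 Mb. The bin from 35 to 40 Mb held 49 narrow peaks for test 1, 52 for test 2, 66 for control 1 and 65 for control 2, and 95, 136, 120 and 114 broad peaks. From 10 to 15 Mb there were 59, 54, 47 and 72 narrow and 91, 113, 86 and 110 broad peaks. Around them peaks thinned out: the bin from 5 to 10 Mb held 15, 19, 21 and 32 narrow peaks, and the bin from 30 to 35 Mb 12, 14, 49 and 17. In that last bin control 1 stood above the rest, with 92 broad peaks where test 1 had 15, test 2 had 46 and control 2 had 37.

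**Figure D2:**
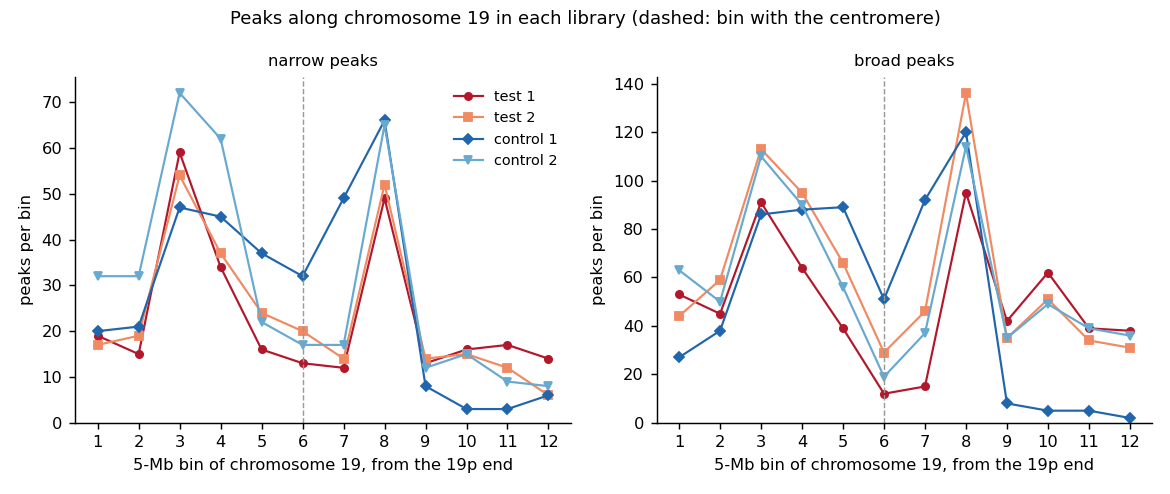
Peaks per 5-Mb bin (y axis) along chromosome 19 (x axis, bin 1 at the 19p end), narrow left and broad right, 1 line per library. Bins 3, 4 and 8 stand up in test 1, test 2 and control 2, and in bins 9 to 12 control 1 drops to between 2 and 8 broad peaks.

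Both arms carried peaks in every library. Split at 26 Mb, 19p had 143 narrow peaks for test 1, 151 for test 2, 170 for control 1 and 220 for control 2, and 19q had 134, 133, 167 and 143. The arms were nearly even except in the narrow list of control 2, where 19q held 39.4%. The 19q share of narrow peaks was 47.6 ± 1.09% in test and 44.5 ± 7.18% in control libraries (SD, n = 2 per group, exact permutation p = 1). Without control 2 the difference of 3.13 percentage points became -1.95, without control 1 8.21, and at a −log10 q of 5 or more -6.64. In broad peaks 19q held 50.9% and 49.0% in the test libraries and 46.3% and 47.1% in the control libraries. These groups did not overlap (3.23 percentage points, exact permutation p = 0.333, adjusted p = 1), but at the stricter q the difference was -9.68. No list had a peak between 24631542 and 27731859, where hg19 has its centromere gap.

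The local background followed the same blocks. It was recovered for each peak as pileup plus 1, divided by the authors' fold enrichment (pileup over local background, each plus 1), minus 1, and is the fragment coverage that the caller expected there from the surrounding 10000 bp or, where that is lower, from the genome-wide mean. Its median on chromosome 19 was above that of the other chromosomes in all libraries. The ratio in broad peaks was 1.48 and 1.61 in the test libraries and 1.56 and 1.54 in the control libraries, and in narrow peaks 1.39, 1.43, 1.36 and 1.49. Chromosome 20 alone, or chromosome 20 with 1 or 2 others, ranked higher, since chromosome 19 ranked 2 to 4 of 23. Groups overlapped in both peak types (each exact permutation p = 1).

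Within the chromosome the background moved in steps. From 10 to 20 Mb, the broad median was 2.24 times that of the other chromosomes for test 1, 2.25 for test 2, 1.92 for control 1 and 2.23 for control 2. From 35 to 40 Mb it was 2.25, 2.34, 1.88 and 2.24 times. Between these blocks, from 20 to 26 Mb, it was 1.23, 1.21, 1.15 and 1.32 times, from 26 to 35 Mb 1.62, 1.41, 1.48 and 1.47 times, and from 40 Mb to the long-arm end 0.923, 1.03, 0.905 and 0.681 times. The edge at 40 Mb was sharp at a width of 1 Mb: from 39 to 40 Mb the ratios were 2.28, 2.42, 2.30 and 2.35, and from 40 to 41 Mb 1.01, 1.07, 1.48 and 0.727. All libraries stepped down there, control 1 the least, with 5 broad peaks left in that last Mb. A peak at genome-wide background cannot go lower, and that level was 0.623 times the median of other chromosomes for test 1, 0.686 for test 2, 0.721 for control 1 and 0.666 for control 2.

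**Figure D3:**
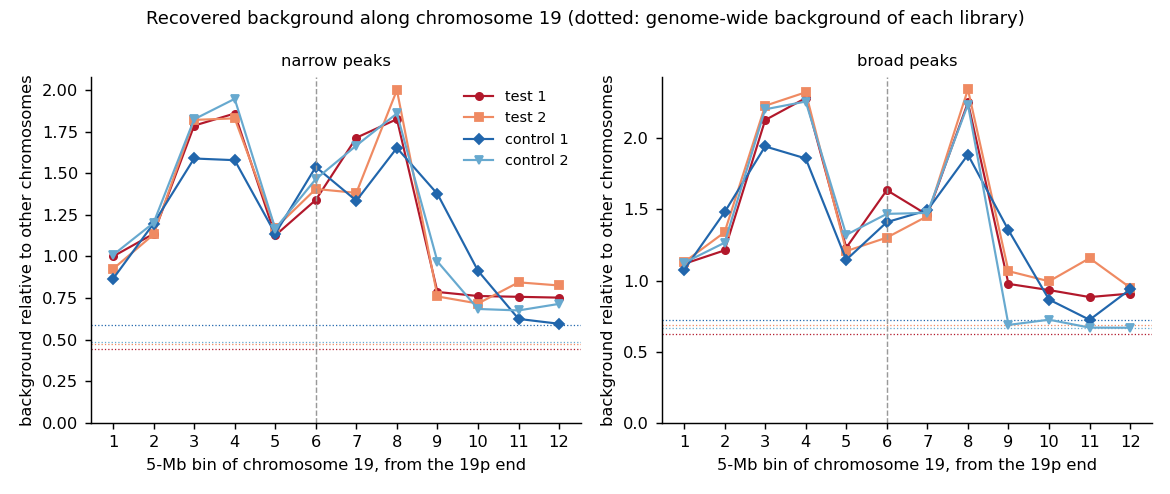
Median recovered background of the peaks in each 5-Mb bin of chromosome 19, divided by the median over the other chromosomes of the same library (y axis), by bin (x axis), narrow left and broad right. In bins 3, 4 and 8 the broad values of all libraries lie between 1.86 and 2.34, and from bin 9 on those of control 2 lie between 0.668 and 0.725, close to its dotted genome-wide background.

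The background of control 2 lay lowest in this distal part of 19q. From 40 Mb on, 79 of its 159 broad peaks (49.7%) were within 2% of the genome-wide background, against 16 of 181 (8.84%) in test 1, 23 of 151 (15.2%) in test 2 and 6 of 20 (30%) in control 1. In narrow lists these were 4 of 44 (9.09%) in control 2, 2 of 60 (3.33%) in test 1, 4 of 47 (8.51%) in test 2 and 7 of 20 (35%) in control 1. Of the broad peaks on other chromosomes, 14.6%, 18.6%, 19.2% and 21.0% were this close (order: test 1, test 2, control 1, control 2). Control 2 was thus highest there too. The distal broad share lay below that level for each test library and above it for each control library. For narrow peaks the level elsewhere was 5.22%, 6.10%, 9.18% and 7.50%, and only test 1 had a lower distal share. The broad background from 40 Mb on was 0.413 times that of 10 to 20 Mb for test 1, 0.458 for test 2, 0.471 for control 1 and 0.306 for control 2. Control 2 stood below both test libraries and control 1 above them, so the groups overlapped (exact permutation p = 1), and without control 2 the difference turned from 0.0471 to -0.0355, while without control 1 it was 0.130. Narrow ratios were 0.416, 0.402, 0.548 and 0.384, with a difference of -0.0573 that became 0.0245 without control 1, -0.139 without control 2 and 0.0991 at the stricter q. The boundaries at 10, 20 and 40 Mb were chosen after the values were seen.

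Control 1 had few peaks in distal 19q, above all few broad ones. From 40 Mb on, it had 20 broad peaks, where test 1 had 181, test 2 had 151 and control 2 had 159. In narrow peaks the numbers were 20, 60, 47 and 44 in that order of libraries. As a share of the chromosome 19 list this was 30.4% of the broad peaks in test 1 (95% exact interval 26.7 to 34.3), 20.4% in test 2 (17.58 to 23.52), 3.27% in control 1 (2.01 to 5.01) and 22.8% in control 2 (19.7 to 26.1). Narrow shares were 21.7%, 16.5%, 5.93% and 12.1%, in which the groups did not overlap (19.1 ± 3.61% in test, 9.03 ± 4.37% in control, SD, n = 2 per group, exact permutation p = 0.333, adjusted p = 1). That difference of 10.1 percentage points was 0.0823 at the stricter q. The broad difference of 12.4 percentage points overlapped between groups (p = 0.667 in the same exact test) and was 2.65 without control 1, 22.2 without control 2, 7.41 without test 1 and 8.003 at the stricter q. Control 1 had 0.0556 to 0.229 broad peaks for each of control 2 in the 4 bins from 40 Mb on. On other chromosomes the median over 160 bins with 30 or more control 2 peaks was 1.48, and 3 of those bins (1.88%), on 3 chromosomes, were at or below 0.229. This comparison was added after the values were seen, and the distal bins were picked for their few control 1 peaks. The bins were also filtered on control 2, the denominator. The 1.88% is therefore no measure of rarity. In the bin from 30 to 35 Mb control 1 had 2.49 broad peaks for each of control 2. The part of its greater depth and of its shorter fragments in these counts was not tested.

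It was then asked which chromosome 19 regions were called by which libraries. Peaks that overlapped by 1 bp or more were merged into 862 narrow and 1518 broad regions. Single-library calls made up 611 narrow regions (70.9%), where the background over all chromosomes was 80.7%, and 874 broad regions (57.6%), where it was 70.4%. Control 1 alone accounted for 281 narrow (32.6%, against 49.9%) and 446 broad regions (29.4%, against 38.0%). Regions called by every library but control 1 numbered 87 narrow (10.1%, against 3.82% over all chromosomes) and 339 broad (22.3%, against 10.5%). On chromosome 17 these shares were 4.85% and 16.6%. Of the control 1 narrow peaks, 8.31% overlapped one of test 1, 13.4% one of test 2 and 11.6% one of control 2. Among the other 3 libraries 41.3% to 57.8% of narrow peaks were shared in each direction of each pair. Test 1 with control 2 had the highest Jaccard index of bases (shared over united) in both types, at 0.313 in narrow and 0.509 in broad peaks, above the 0.294 and 0.406 of the 2 test libraries. The 2 control libraries reached 0.0556 and 0.0616.

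Sharing changed along the long arm. From 26 to 35 Mb, 115 of 226 broad regions (50.9%) were in control 1 alone and 12 (5.31%) in all libraries but control 1. From 40 Mb on the order was the reverse, with 11 of 269 (4.09%) in control 1 alone and 87 (32.3%) in all but control 1. The bin from 35 to 40 Mb lay between, at 72 (30.4%) and 60 (25.3%) of 237, and it held 22 of the 60 broad regions called in all 4 libraries. Of the distal regions missing in control 1, the leading one lay at 47164393 to 47164865, with a fold enrichment at 8.74 in test 1, 5.97 in test 2 and 7.57 in control 2. Next came 50269663 to 50270188 (7.0, 5.59 and 5.88) and 56652081 to 56652565 (7.24, 5.20 and 5.58). This choice was made with their values in view.

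**Figure D4:**
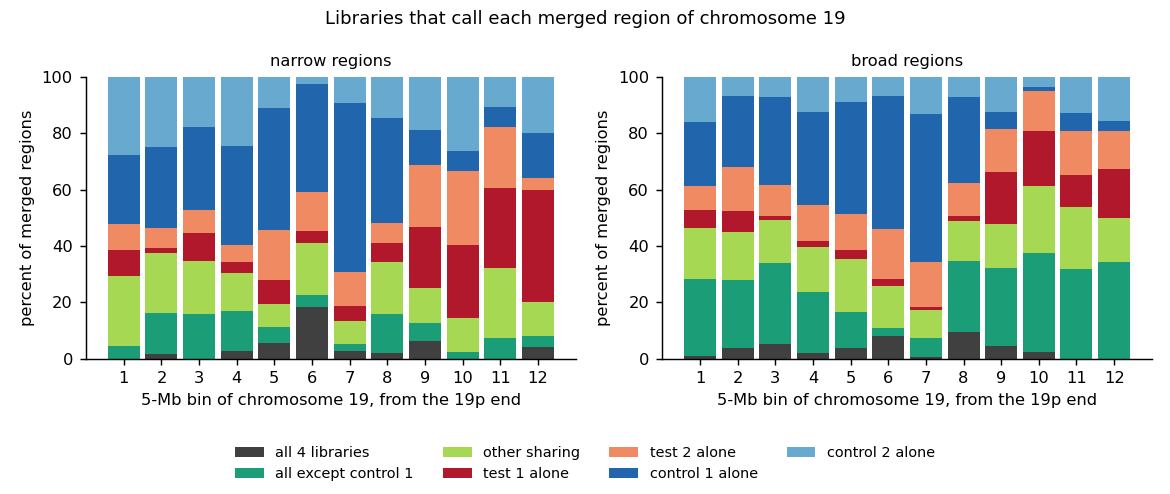
Percent of merged regions of each 5-Mb bin (y axis) by the libraries that called them, along chromosome 19 (x axis), narrow left and broad right. In broad regions the share of control 1 alone is 52.6% in bin 7 and at most 6.35% in bins 9 to 12, and the share called by all libraries except control 1 rises to 34.9% in bin 10.

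All 4 libraries called 24 narrow regions (2.78%, against 3.86% over all chromosomes) and 60 broad ones (3.95%, against 3.04%). The narrow region ranked highest by its lowest within-list percentile sat at the long-arm edge of the centromere gap, from 27731962 to 27732316. Its fold enrichment was 29.5 and 29.5 in the test libraries and 27.0 and 27.4 in the control libraries. Control 1 had higher values at 27890159 and 36066505, given below. The background of the first region was 13.1, 13.5, 26.1 and 15.4, far above the chromosome's medians of 0.487 to 0.844. The widest broad peak of each library covered the same edge, 2606 to 2627 bp wide with a background of 162 to 227. Satellite repeats flank centromeres, and no list of artefact-prone sequence was applied, so whether these calls are open chromatin was not tested. Further all-library regions from there were 27738393 to 27738617 (22.8, 23.3, 20.7 and 21.9), 27890159 to 27890270 (19.7, 22.9, 39.7 and 21.9) and 27732607 to 27732789 (14.4, 13.6, 14.1 and 13.1). Away from the centromere, the region at 36066505 to 36066741 reached 26.1 and 28.0 in the test libraries and 29.5 and 27.1 in the control libraries, although a broad peak covered it in control 1 only, with a fold enrichment of 12.7. Without 24 to 29 Mb, 14 of the 24 narrow regions were left.

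Other positions led the broad regions of all 4 libraries. The highest ranked by its lowest within-list percentile, at 44914870 to 44915786 inside the second zinc finger window described further on, reached 6.70 and 6.80 in the test libraries and 6.57 and 7.16 in the control libraries, and narrow peaks of all 4 libraries overlapped it. Single libraries had stronger all-library regions, such as 14640068 to 14640487 in test 1 (8.98), 20162782 to 20163365 in test 2 (7.57) and 36422316 to 36422762 in control 2 (7.91). Next by rank were 39340598 to 39341542 (6.10, 6.21, 4.06 and 5.81), 24614263 to 24614744 (5.49, 5.25, 5.98 and 5.56), 19886941 to 19887702 (7.75, 6.16, 3.89 and 6.38) and 7515531 to 7515942 (5.11, 4.93, 6.52 and 5.41). Over the 60 regions the median fold enrichment was 4.56, 4.25, 3.25 and 4.58, lowest in control 1.

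Test-only narrow regions, called by test 1 and test 2 and by no control library, numbered 24 of 862 (2.78%, against 1.25% over all chromosomes). The share was 2.25% on chromosome 17, 0.410% on chromosome 20 and 1.36% on chromosome 22. Regions of control 1 alone enter these denominators unevenly, at 32.6% on chromosome 19 and 49.9% over all chromosomes. The test-only regions lay on both arms at like shares, 13 of the 465 regions of 19p (2.80%) and 11 of the 397 of 19q (2.77%). From 10 to 20 Mb they were 10 of 272 regions (3.68%), from 35 to 40 Mb 3 of 151 (1.99%) and from 40 Mb on 8 of 127 (6.30%). None of the 72 regions from 20 to 26 Mb or the 119 from 26 to 35 Mb was among them. The highest ranked were 13964321 to 13964436, enriched 9.84-fold in test 1 and 6.76-fold in test 2, and 36184851 to 36184934, with 6.79 and 7.48. No broad peak of any library overlapped either. Next came 11404577 to 11404735 (6.76 and 6.70), 39174441 to 39174564 (6.78 and 6.29), 12511995 to 12512223 (8.20 and 6.19) and 17416408 to 17416508 (7.33 and 6.14), each of which overlapped a broad peak of test 1, test 2 and control 2. The remaining named regions were 16563289 to 16563376, 50143738 to 50144000, 47164692 to 47164839 and 12833452 to 12833528. Median values over the 24 were 6.82 in test 1 and 5.77 in test 2. A broad peak of control 2 overlapped 18 of the 24 and one of control 1 overlapped 1, so most of these sites had a control 2 call in the other peak type. The count became 118 when test 1 was left out, 112 for test 2, 27 for control 1 and 110 for control 2, and the stricter q left 8.

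Control-only narrow regions numbered 8 (0.928%, against 1.25%). The leading one lay at 8999335 to 8999485, enriched 7.35-fold in control 1 and 6.25-fold in control 2, and a broad peak of control 1 overlapped it. The others reached 3.42 to 5.56 in control 1 and 3.29 to 5.21 in control 2, at 27864380 to 27864453, 44915270 to 44915357, 8876431 to 8876506, 30553436 to 30553520, 24605718 to 24605804, 27868558 to 27868644 and 27733854 to 27733934. Broad peaks of all 4 libraries overlapped 3 of the 8, among them the region at 44915270, which is part of the highest ranked broad region shared by all. With 24 to 29 Mb left out, 4 remained. Without control 1 there were 160, without control 2 289, without test 2 14 and without test 1 9, and 2 were left at the stricter q and 2 in lists of equal length.

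Broad regions gave 22 test-only (1.45%, against 1.03%) and 14 control-only calls (0.922%, against 1.24%). The test-only share was 1.66% on chromosome 17, 0.118% on chromosome 20 and 0.217% on chromosome 22. Test-only regions were 11 of the 269 from 40 Mb on (4.09%) and 0 of the 226 between 26 and 35 Mb, where control 1 had 143 broad peaks. Control-only regions were 1 of the 269 (0.372%) and 4 of the 226 (1.77%). A test-only region must lack a control 1 peak and a control-only region must hold one, and the part of the control 1 list in these positions was not tested. The leading test-only region lay at 8509595 to 8509869, enriched 5.74-fold in test 1 and 4.88-fold in test 2. Its background was 1.62 in test 1 and 1.57 in test 2, where the genome-wide background was 1.48 and 1.56. The test 2 value was thus within 2% of the lowest possible level. No narrow peak of any library overlapped this region. Others were 46220623 to 46220891 (5.45-fold in test 1 and 4.48-fold in test 2), 3505852 to 3506182 (5.52 and 4.30), 41109849 to 41110238 (4.90 and 4.29) and 41869823 to 41870231 (5.0 and 4.01). Control-only regions were led by 49172533 to 49172966 (4.44 in control 1 and 4.28 in control 2), 22891929 to 22892143 (3.61 and 3.71), 19956659 to 19956897 (3.60 and 3.67), 20503743 to 20504086 (3.51 and 3.71) and 16024348 to 16025102 (3.97 and 3.42). Of these regions, 8 of 22 and 1 of 14 overlapped a narrow peak of any library. Without control 2 the counts rose to 360 and 460, and without control 1 they were 25 and 162. With test 1 left out there were 223 and 14, and with test 2 left out 104 and 29.

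Next came the zinc finger gene-rich parts of 19q, here taken as 4 windows from 36 to 39, 44 to 45, 52 to 54 and 56 to 60 Mb. The windows follow general knowledge of where these clusters lie and not an annotation, and they also hold other genes. They make up 27.5% of 19q by length, or 29.1% when the arm is taken from the end of the centromere gap. Of its narrow peaks they held 35.8% and 38.3% in the test libraries and 34.7% and 43.4% in the control libraries, and of its broad peaks 40.6%, 37.0%, 29.3% and 38.6%. Control 1 in broad peaks was close to the share by length without the gap, and the other 7 values lay above it. The groups overlapped in narrow peaks (37.1 ± 1.79% in test, 39.04 ± 6.10% in control, SD, n = 2 per group, exact permutation p = 1) and in broad peaks (38.8 ± 2.53% and 34.0 ± 6.56%, exact permutation p = 0.667). The narrow difference of -1.96 percentage points was 2.35 without control 2, -6.27 without control 1, -3.22 without test 2, -0.698 without test 1 and -10.9 in lists of equal length. The broad difference of 4.84 was 0.203 without control 1, 9.48 without control 2, 3.05 without test 1 and -12.5 at the stricter q.

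The first window was the densest of the 4 windows. From 36 to 39 Mb there were 11.7 narrow peaks per Mb for test 1, 13.3 for test 2, 15.7 for control 1 and 16.3 for control 2, and 24, 32.3, 27.0 and 28.3 broad ones. The rest of 19q outside all 4 windows and the gap had 3.86, 3.68, 4.89 and 3.64 narrow and 8.08, 10.2, 8.98 and 9.07 broad peaks per Mb. The window from 52 to 54 Mb lay at the other end, with 1, 3, 1 and 2 narrow and 7, 8, 0 and 7 broad peaks in all. Between 56 Mb and the chromosome end there were 9, 4, 5 and 5 narrow and 32, 22, 0 and 29 broad peaks. Within the part from 40 Mb on, the 3 distal windows had 0.588 times the narrow peak density of the sequence between them for test 1, 0.649 for test 2, 2.60 for control 1 and 0.891 for control 2. Control 1 goes the other way there with 11 peaks in the windows and 9 outside, while in broad peaks all 4 libraries were below 1, at 0.833, 0.690, 0.236 and 0.763. The background also differed between windows: relative to other chromosomes its broad median was 2.31, 2.33, 1.80 and 2.29 from 36 to 39 Mb but 0.658, 0.720 and 0.668 from 52 to 54 Mb in test 1, test 2 and control 2, where control 1 had no broad peak. Outside the windows, 39 to 40 Mb had 12, 11, 10 and 13 narrow and 18, 26, 16 and 18 broad peaks. Its broad background ratios were 2.28, 2.42, 2.30 and 2.35. On the other side, 35 to 36 Mb had 2, 1, 9 and 3 narrow and 5, 13, 23 and 11 broad peaks. Ratios there were 1.51, 1.69, 1.86 and 1.96. Whether the density of the first window goes with its zinc finger genes was not tested.

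**Figure D5:**
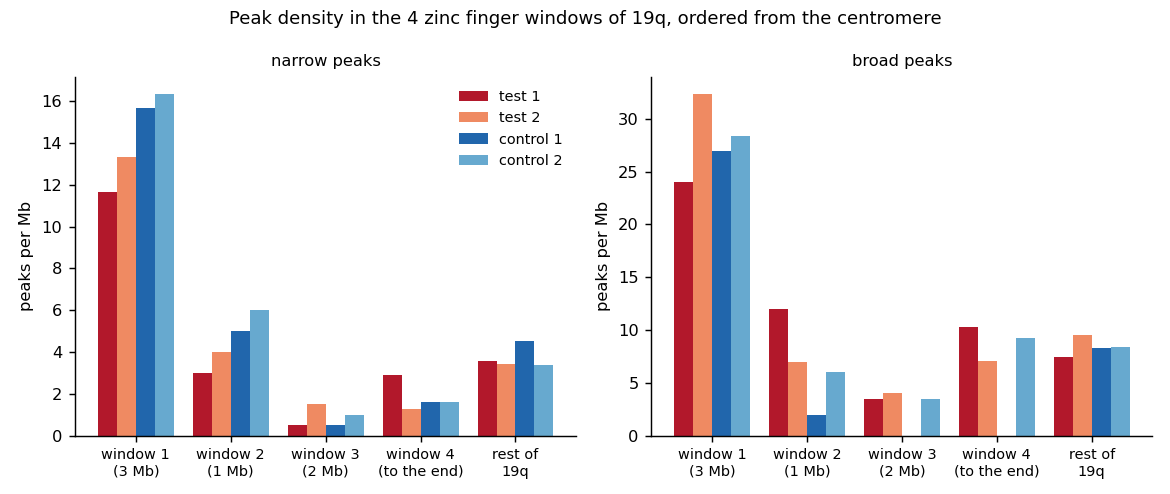
Peaks per Mb (y axis) in the 4 zinc finger windows of 19q and in the rest of the arm, gap included (x axis), narrow left and broad right, 1 bar per library. Window 1 (36 to 39 Mb) reaches 24 to 32.3 broad peaks per Mb, and window 3 (52 to 54 Mb) stays at or below 4 in every library.

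Control 1 had the narrowest and weakest peaks at the median. Median narrow width was 99 bp for test 1, 92 for test 2, 77 for control 1 and 98 for control 2, and median broad width 403, 352, 256 and 413.5 bp. Elsewhere the medians were 92, 87, 79 and 92 bp and 348, 335, 262 and 360 bp, so chromosome 19 peaks were wider in test 1, test 2 and control 2 and narrower in control 1. The group difference was 8 bp in narrow peaks (exact permutation p = 0.667) and 42.8 bp in broad peaks (p = 1, same exact test), and without control 1 it became -2.5 and -36, without control 2 18.5 and 121.5, and without test 1 4.5 and 17.25. Median fold enrichment on chromosome 19 was 6.32, 5.80, 4.75 and 6.17 in narrow and 4.20, 3.56, 3.23 and 3.85 in broad peaks. Divided by the median elsewhere this was 1.06, 1.02, 0.929 and 1.07 in narrow and 1.04, 0.983, 0.909 and 1.04 in broad peaks. The group difference of 0.0446 in narrow peaks (exact permutation p = 1) was -0.0265 without control 1 and 0.116 without control 2, and that of 0.0385 in broad peaks (exact permutation p = 0.667) was -0.0267 and 0.104.

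Broad peaks that pass the stricter q were more frequent on chromosome 19 than elsewhere in 3 of the 4 libraries. The share of broad peaks with a −log10 q of at least 5 was 48.7% and 25.2% in the test libraries and 4.09% and 41.7% in the control libraries, against 30.9%, 13.7%, 5.37% and 24.5% on the other chromosomes. Relative to elsewhere, broad fold enrichment was 1.04, 0.983, 0.909 and 1.04 and broad background 1.48, 1.61, 1.56 and 1.54. The part of the higher background in these shares was not tested. In narrow peaks the shares were 47.7%, 38.0%, 20.5% and 46.8% against 44.96%, 39.1%, 25.8% and 41.3%, higher on chromosome 19 in test 1 and control 2 and lower in test 2 and control 1. Median broad fold enrichment was higher beyond the step at 40 Mb than before it in all 4 libraries. From 35 to 40 Mb the broad median was 3.83, 3.29, 3.07 and 3.77, and from 40 Mb on 4.49, 4.0, 3.73 and 4.14. Fold enrichment has the background in its denominator, so this rise is not separate from the background step. Narrow medians went the other way in test 1 (6.71 to 5.76), test 2 (5.91 to 5.59) and control 2 (6.79 to 5.42) and not in control 1 (4.64 to 6.11). Narrow peaks lay inside a broad peak of their own library in 81.9% of cases for test 1, 69.4% for test 2, 38.6% for control 1 and 76.6% for control 2. On the other chromosomes this share was 70.2%, 60.3%, 42.9% and 66.4%.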

How the data were processed

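ATAC-seq peak lists of 2 test and 2 control libraries of OVSAHO were used, grouped and numbered by the labels' titles. Per the file headers, the authors called peaks with MACS2 2.2.7.1 in each library on paired-end fragments, with all duplicates, no control sample, a q threshold of 0.05, a genome size of 2.7e+09 and a regional range of 10000 bp. The submitters' processing notes also name hg19, cutadapt 3.2, Bowtie2 2.3.5.1, Picard, deepTools 3.5.1 and edgeR 3.34.1. The deposited pileup is a coverage signal, p and q are deposited as −log10, and the deposited fold enrichment is a ratio to the library's own background. None is scaled between libraries, so a deeper library can call weaker sites, and values describe peaks within a list.

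Peaks of chromosome 19 were counted by midpoint in bins of 5 Mb from position 1. Lengths run to the last peak in any list. Regions were merged at an overlap of 1 bp or more, and shares have 95% intervals by the Clopper-Pearson method (counting error only). Group means were compared by exact permutation, two-sided, over the 6 assignments with Benjamini-Hochberg adjustment over 18 comparisons. The background formula is exact for narrow peaks and approximate for broad ones, whose values are means over the peak. Named regions are, among narrow regions, the 5 called in all libraries and the 10 called in 1 group alone, and among broad regions the 5 of each class, with the highest score (the smallest within-list percentile of fold enrichment), and the strongest and widest peak of each library. The members, windows and tests were chosen with earlier results of these data known. Alternatives were lists cut to equal length, only peaks with −log10 q of at least 5, leaving out 24 to 29 Mb, other overlap rules (50% of the shorter peak, or within 100 bp), each library left out and a replicate block. On simulated regions, 4000 of 4000 were assigned to the right libraries. These regions were set well apart and their peaks always overlapped, so this checks the code and not closely spaced or wide peaks. Computation used scipy 1.17.1 and pandas 2.3.3 on numpy 2.4.6 in Python 3.11.15, with plots by matplotlib 3.10.9.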

Additional observations from a re-analysis of the deposited data

How the results depend on the processing

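With 2 libraries a group, no p could fall below 0.333, so the tests say nothing of stability. Of 56 recalculated differences that left out no library and used no block, 40 kept their sign, and 29 of 54 recounts of regions stayed within 1.5 times. At a −log10 q of 5 or more, test minus control was -9.68 (broad) and -6.64 (narrow) percentage points for the 19q share, -12.5 points for the broad zinc finger share, -9.25 bp for broad width, 0.226 for relative broad background, -0.0122 for relative broad fold enrichment and 0.0991 for the narrow background ratio of distal 19q, and control minus test was -0.5 narrow and -80 broad peaks. The sign held but the size moved for the narrow and broad distal share (0.0823 and 8.003), the broad distal ratio (0.0981), the broad chromosome 19 share (4.19) and relative narrow background (-0.0337) and fold enrichment (0.0110). Narrow regions were then 12 in all libraries, 8 test-only and 2 control-only, and broad regions 8 in all and 0 control-only. Lists of equal length gave -4.49 points for the narrow 19q share, -8.75 bp for narrow width, -94 narrow and -145 broad peaks, -10.9 points for the narrow zinc finger share, 0.0193 for relative narrow fold enrichment, 0.0187 for the broad distal ratio, 0.0835 and 0.0386 for relative broad and narrow background and 0.0558 for the narrow distal ratio, with 34 test-only, 3 control-only and 36 all-library broad regions and 2 control-only narrow regions. Per 1000000 fragments the differences were -8.41 (narrow) and -5.52 (broad). With whole 5-Mb bins in place of the windows the zinc finger shares differed by 8.56 (narrow) and 10.02 points (broad). Without 24 to 29 Mb, 4 control-only and 14 all-library narrow regions remained, and broad peaks differed by -20, relative narrow background by -0.0278 and the narrow zinc finger share by -3.15. The other overlap rules changed no count by over 1.5 times.

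Leaving out 1 library at a time, so that the lone library of a group is 1 value with no spread, the 19q share ranged from -1.95 to 8.21 (narrow) and 2.26 to 4.20 (broad), the difference in narrow peaks from 56.5 to 82.5 and in broad peaks from -84.5 to 59.5, and width from -2.5 to 18.5 and from -36 to 121.5 bp. Relative background ranged from -0.0801 to 0.0507 (narrow) and -0.0682 to 0.0554 (broad), relative fold enrichment from -0.0265 to 0.116 and -0.0267 to 0.104, the distal ratio from -0.139 to 0.0245 and -0.0355 to 0.130, and the zinc finger share from -6.27 to 2.35 and 0.203 to 9.48. The chromosome 19 share ranged from 0.805 to 4.22 and 0.768 to 2.69 and the distal share from 6.98 to 13.2 and 2.65 to 22.2. Region counts ranged, narrow then broad, from 27 to 118 and 25 to 360 test-only, 9 to 289 and 14 to 460 control-only, and 25 to 110 and 59 to 399 in all libraries left. For all of these the cause was not tested.

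With the replicate number as a block each difference keeps its value by construction, for example 69.5 narrow peaks and 2.51 points of the narrow share. The smallest p that such pairing gives is 0.5. Same-numbered libraries correlated at -0.352 (narrow, 589 bins) and -0.726 (broad, 596 bins) in their deviations from the group means. With 2 libraries a group, crossed numbers must give the same values with the opposite sign. These correlations therefore cannot tell whether a number marks a shared culture, day or batch. With crossed numbers, an alternative added after seeing the data, 9 of 18 differences had 1 sign in both pairs, against 5 as numbered. With so few libraries none could pass either way, and 0 did. The distal 19q shares and ratios were also added after seeing the data.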
